A study of Mus musculus with 36 samples.

Results

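The cystine transporter gene Slc7a11 and 8 genes of the NRF2 antioxidant pathway were followed through tumor growth in a pair of mouse intraductal models of mammary carcinoma. The 9 genes were Slc7a11, Gclc, Gclm, Nqo1, Hmox1, Txnrd1, Srxn1, Nfe2l2 and Keap1, out of 21650 genes with values. They were matched by gene symbol, and they were chosen because of 1 measured value: Slc7a11 was selected on its score at week 6, when 4T1 tumors stood far above Py230 tumors, so that difference is described here and not tested. The other 8 were added as NRF2, its inhibitor and its known targets, to see whether they followed. All 9 had a value in every one of the 36 RNA sequencing libraries. No filter for low values was applied to the 21650 genes here, and whether the authors had applied one is not known.

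Lactating female mice, mated as young adults, received an injection into the duct of the third mammary gland shortly after their pups were weaned. BALB/c mice received 4T1 cells, a metastatic triple-negative line derived from BALB/c and made to express firefly luciferase. C57BL/6 mice received Py230 cells, a line grown from a mammary tumor of an MMTV-PyMT C57BL/6 mouse, in which a mammary promoter drives a viral oncogene. Control glands of each strain received Matrigel, the matrix the cells were suspended in, without cells. Whole tumors or glands were taken 1, 3 and 6 weeks after injection, which gave 12 groups of 3 libraries. 4T1 cells were placed only in BALB/c mice and Py230 cells only in C57BL/6 mice, and each model rests on 1 cell line, so in the tumors the line and the strain cannot be told apart. The labels do not state that the 3 libraries of a group came from separate mice, so the p-values measure the spread between libraries. The libraries were bulk samples, in which fewer cells of a type and less RNA per cell cannot be told apart.

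The transcription factor NRF2, encoded by Nfe2l2, is bound by KEAP1 and sent for degradation until oxidants or electrophiles modify KEAP1. Released NRF2 enters the nucleus and, with small MAF proteins, binds antioxidant response elements near genes for glutathione synthesis, quinone reduction, haem breakdown and the thioredoxin system. SLC7A11 is the light chain of the cystine/glutamate exchanger and brings in the cystine from which glutathione is made, and its gene is also a known target of ATF4, the transcription factor of the amino acid stress response.

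Upstream sequence is shown for Slc7a11, which was high in week 6 4T1 tumors, and for Gclm and Nqo1, which were low there. RefSeq promoters (GRCm38.p6, the build of the files) were matched for 7 of the 9 genes, all but Gclc and Hmox1, with 3 start sites for Txnrd1, and the 250 bases before each start site were read 5′ to 3′ on the gene's strand. They lay at chr3:50443614-50443863 on the minus strand for Slc7a11, chr3:122245307-122245556 on the plus strand for Gclm and chr8:107403206-107403455 on the minus strand for Nqo1. Capitals mark matches on either strand to the core of the antioxidant response element, TGACNNNGC, or to the amino acid response element bound by ATF4 and its partners, TTGCATCA; the motifs do not overlap in these windows.
Slc7a11: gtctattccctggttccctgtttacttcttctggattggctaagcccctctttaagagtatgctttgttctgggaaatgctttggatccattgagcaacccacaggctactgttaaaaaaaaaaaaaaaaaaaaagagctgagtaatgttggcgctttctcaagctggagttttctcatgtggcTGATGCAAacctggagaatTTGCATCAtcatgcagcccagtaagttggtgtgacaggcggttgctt
Gclm: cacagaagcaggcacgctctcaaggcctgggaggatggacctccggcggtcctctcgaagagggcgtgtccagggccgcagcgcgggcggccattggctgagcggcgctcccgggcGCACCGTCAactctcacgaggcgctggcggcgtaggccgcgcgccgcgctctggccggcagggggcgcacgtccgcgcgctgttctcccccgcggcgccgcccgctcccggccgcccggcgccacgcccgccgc
Nqo1: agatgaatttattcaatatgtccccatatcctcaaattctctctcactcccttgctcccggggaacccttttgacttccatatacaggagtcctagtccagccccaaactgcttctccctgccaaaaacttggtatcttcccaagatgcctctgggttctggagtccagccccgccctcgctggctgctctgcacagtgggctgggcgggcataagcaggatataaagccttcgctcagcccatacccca
The Slc7a11 window held TTGCATCA once on each strand, at bases 66 to 59 and 47 to 40 before the start site, and no TGACNNNGC. TTGCATCA was found in 0.792% of the 32851 promoters searched. The Gclm window held TGACNNNGC once, on the opposite strand, as did the window of Nfe2l2 on its own strand and that of 1 of the 3 Txnrd1 start sites on the opposite strand, against 10.2% of all promoters. The Nqo1 window held neither motif. Sequence further upstream was not read, so the lack of a motif holds only for these 250 bases. A match is a description of the letters in these windows and not a binding site.

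Values were standardized expression scores: in each library the scores of all genes had a mean of 0 and a standard deviation of 1, so a score says how high a gene stood in its library and a difference of scores is not a fold change. Across the 13567 genes with an authors' mean normalized count of at least 100, 1 score unit went with 2.78 log2 units of that mean. Scores are not scaled by gene length and are compared here only within a gene. Libraries of 1 group correlated at 0.947 or more over all genes, and no pair of libraries exceeded 0.993. The number of reads behind each score is unknown.

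Slc7a11 (chr3:49892526-50443614, minus strand, protein coding) stood far higher in the week 6 4T1 tumors than in any other group. Its scores in those 3 libraries were 1.54, 1.54 and 1.47, with a mean of 1.52 ± 0.04 (SD, n = 3). In 4T1 tumors they were 0.91, 0.33 and 0.42 at week 1 (0.55 ± 0.31, SD, n = 3) and 0.62, -0.03 and 0.14 at week 3 (0.24 ± 0.34, SD, n = 3). Every week 6 4T1 library was therefore above every one of the other libraries, the highest of which was a week 1 4T1 tumor, and the week 6 libraries were much closer to each other than those of the earlier weeks.

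In Py230 tumors the Slc7a11 score was 0.11 ± 0.32 at week 1, -0.23 ± 0.37 at week 3 and -0.17 ± 0.13 at week 6 (SD, n = 3 each). The 6 groups of Matrigel glands had means from -0.21 to 0.04. Ordered by mean, the week 1 and week 3 4T1 tumors came next after the week 6 4T1 tumors, and each of the groups below the top overlapped its neighbor in the range of its libraries. The 4T1 minus Py230 difference was 1.69 at week 6, against 0.44 with a standard error of 0.19 at week 1 (adjusted p = 0.0910) and 0.47 with a standard error of 0.19 at week 3 (adjusted p = 0.0537). Neither earlier difference passed the threshold of an adjusted p below 0.05. At week 3 the lowest 4T1 library lay within the Py230 range, and the adjusted p was 0.0406 with cyclic loess and 0.0466 with a robust line per library as the scaling. Single libraries moved both calls: the difference passed at week 1 without 4T1 replicate 2 (0.55) and at week 3 without 4T1 replicate 2 (0.61) or Py230 replicate 3 (0.63). The range of the 12 group means of Slc7a11, 1.75, was larger than that of 98.3% of all genes, a description of the pattern for which it was chosen.

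**Figure D1:**
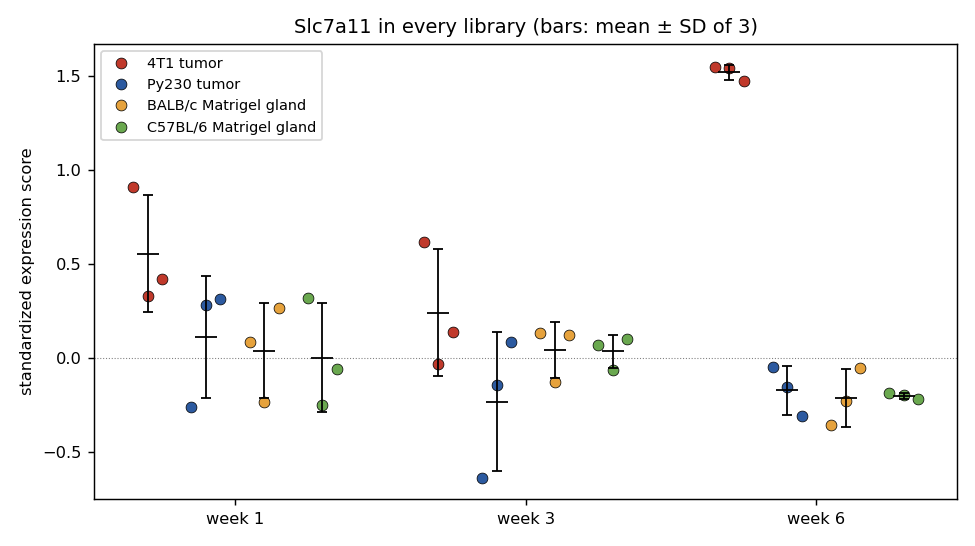
Standardized expression score of Slc7a11 (vertical axis) in each of the 36 libraries, by week after injection (horizontal axis) and group (color); bars give the mean ± SD of 3 libraries. The week 6 4T1 libraries lie between 1.47 and 1.54, above all others.

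The NRF2 targets did not follow Slc7a11 as a group at week 6. Of the 8 other genes, 3 had higher and 3 lower scores in the 4T1 tumors by limma with Benjamini-Hochberg adjustment over all genes, where 24.1% of all genes were called higher and 16.7% lower. The higher genes were the targets Hmox1 and Txnrd1 and the inhibitor gene Keap1, which is not counted among the targets. All of the lower genes, Gclc, Gclm and Nqo1, were targets. With single libraries left out 4 to 5 of the 6 calls were made, and those of Gclc, Gclm and Nqo1 were made each time. Nqo1 and Gclc, both lower, carried the largest tested differences, and the lower genes included both subunits of the enzyme that uses the cysteine supplied through SLC7A11. The median difference of the 8, which includes the regulators Nfe2l2 and Keap1 and is not that of the targets alone, was 0.08, against 0.04 over all genes. Of all calls 59.1% were higher, or 49.0% with cyclic loess normalization.

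Among the genes of glutathione synthesis, both subunits of glutamate-cysteine ligase were lower. Gclc (chr9:77754535-77794485, plus strand), the catalytic subunit, scored 0.64, 0.73 and 0.62 in 4T1 tumors and 1.10, 1.08 and 1.26 in the Py230 libraries of week 6, a difference of -0.48 with a standard error of 0.08 (adjusted p = 3.49e-05). Gclm (chr3:122245557-122270732, plus strand), the modifier subunit, scored 0.72, 0.94 and 0.74 against 1.15, 1.12 and 1.10, a difference of -0.32 with a standard error of 0.05 (adjusted p = 3.50e-06). The groups did not overlap for either subunit, and both remained below the threshold of 0.05 when any of the 6 libraries was left out.

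Nqo1 (chr8:107388225-107403206, minus strand), which encodes the quinone reductase often taken as a readout of NRF2, showed the largest tested difference among the 9 genes. It scored -0.26, -0.71 and -0.54 in the week 6 4T1 tumors and 0.59, 0.73 and 0.42 in the week 6 Py230 tumors, a difference of -1.08 with a standard error of 0.10 (adjusted p = 1.41e-09). All other groups had means between 0.31 and 0.64, so the week 6 4T1 libraries were the only ones with Nqo1 scores below 0. The difference lay between -1.20 and -0.98 when single libraries were left out. Nqo1 was thus lowest in the group where Slc7a11 was highest.

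Hmox1 (chr8:75093621-75100589, plus strand), the inducible haem oxygenase, went the other way. It scored 1.16, 1.27 and 1.14 in the week 6 4T1 tumors and 0.74, 1.06 and 0.73 in the week 6 Py230 tumors, a difference of 0.35 with a standard error of 0.13 (adjusted p = 0.0382). The groups did not overlap. The adjusted p was 0.0514 with quantile and 0.0594 with cyclic loess normalization, and the call was lost when any library other than Py230 replicate 2 was left out, with differences from 0.29 to 0.37 where it was lost. Hmox1 is abundant in macrophages that recycle haem. The 9 measured macrophage markers had a mean score of 1.42 (libraries 1.41 to 1.43) in 4T1 and 1.26 (1.22 to 1.31) in Py230 tumors at week 6. Although 0 of the 9 were called, the libraries did not overlap in this mean. It was 1.80 (1.59 to 1.93) against 1.44 (1.29 to 1.54) at week 1 and 1.71 (1.46 to 2.05) against 1.18 (1.09 to 1.23) at week 3. The part of macrophages in the Hmox1 differences was not tested.

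In the thioredoxin system, Txnrd1 (chr10:82833951-82897712, plus strand), the cytosolic thioredoxin reductase, scored 1.41, 1.5 and 1.48 in 4T1 and 1.39, 1.38 and 1.36 in the Py230 libraries of week 6, a difference of 0.08 with a standard error of 0.03 (adjusted p = 0.0375). The groups were separate by a narrow gap, and the call was lost with quantile (0.03, adjusted p = 0.430) or cyclic loess scaling (0.04, adjusted p = 0.224), in a fit of the compared groups alone (adjusted p = 0.0647), and without 4T1 replicate 2 or 3 or any Py230 replicate. Srxn1 (chr2:152105516-152111376, plus strand), encoding sulfiredoxin, which repairs overoxidized peroxiredoxins, scored 0.63, 0.72 and 0.70 against 0.51, 0.55 and 0.57. Its difference of 0.14 with a standard error of 0.08 did not pass (adjusted p = 0.158), although the groups did not overlap, and passed in a fit of the compared groups alone (adjusted p = 0.0181).

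Of the regulators, Nfe2l2 (chr2:75675513-75704641, minus strand) scored 1.40, 1.44 and 1.34 in 4T1 and 1.33, 1.30 and 1.30 in the Py230 libraries of week 6, a difference of 0.08 with a standard error of 0.05 that did not pass (adjusted p = 0.237). Keap1 (chr9:21229730-21239361, minus strand) scored 1.04, 0.95 and 1.02 against 0.93, 0.83 and 0.94, a difference of 0.10 with a standard error of 0.03 (adjusted p = 0.00541). Keap1 varied little over the whole series: the range of its group means, 0.11, was larger than that of only 2.44% of all genes. Its adjusted p was 0.0728 without Py230 replicate 2, 0.0750 with cyclic loess normalization and 0.0732 in a fit of the compared groups alone. NRF2 is regulated mainly at the level of the protein, which was not measured here.

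**Figure D2:**
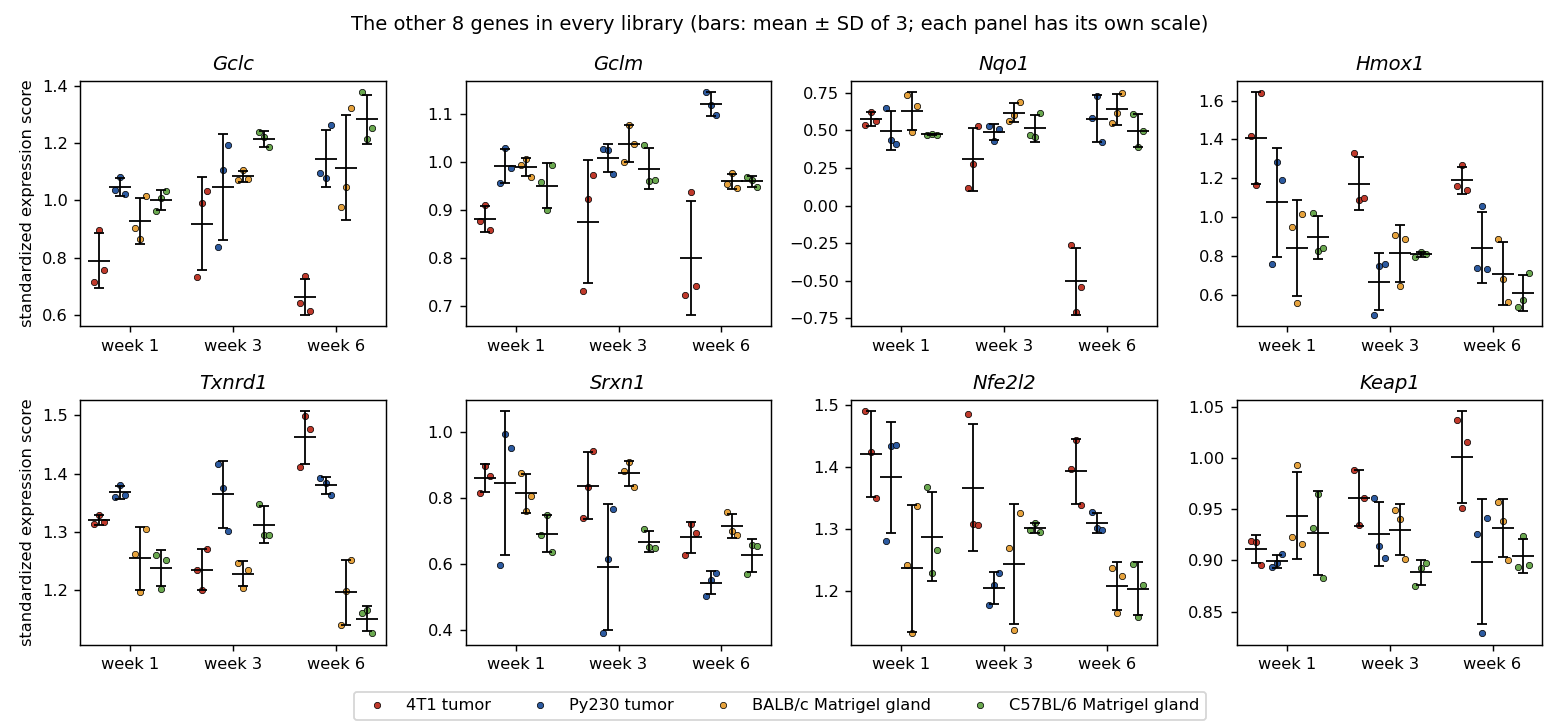
Standardized expression scores (vertical axes, each panel on its own scale) of the 8 other genes in all 36 libraries by week (horizontal axis) and group (color); bars give the mean ± SD of 3 libraries. Nqo1 lies below 0 in the week 6 4T1 tumors alone, while the 4T1 groups stand highest for Hmox1.

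At week 1, 0 of the 9 genes were higher (background 11.0%) and 1 was lower (background 8.43%) in the 4T1 tumors. This was Gclc, with 0.72, 0.90 and 0.76 in 4T1 and 1.03, 1.08 and 1.02 in Py230 tumors, a difference of -0.26 with a standard error of 0.08 (adjusted p = 0.0320). The call was lost when any library other than 4T1 replicate 2 was left out, with differences from -0.27 to -0.22 where it was lost. The Hmox1 difference was 0.33 with a standard error of 0.13 (adjusted p = 0.0802), the Gclm difference was -0.11 (adjusted p = 0.0979), and those of Nqo1, Txnrd1, Srxn1, Nfe2l2 and Keap1 lay between -0.05 and 0.08.

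At week 3, 3 genes were higher (background 11.9%) and 2 lower (background 18.5%) in 4T1 tumors. Hmox1 scored 1.33, 1.09 and 1.10 in 4T1 and 0.50, 0.75 and 0.76 in Py230 tumors, a difference of 0.50 with a standard error of 0.13 (adjusted p = 0.00521). Srxn1 was higher by 0.25 with a standard error of 0.08 (adjusted p = 0.0156), although its groups overlapped, with Py230 libraries at 0.39, 0.61 and 0.77 and 4T1 libraries at 0.74, 0.83 and 0.94. Nfe2l2 scored 1.48, 1.31 and 1.31 against 1.18, 1.21 and 1.23, higher by 0.16 with a standard error of 0.05 (adjusted p = 0.0262). Week 3 was the only week at which Nfe2l2 passed the threshold between the tumors.

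The lower genes at week 3 were Gclm and Txnrd1. Gclm scored 0.73, 0.92 and 0.97 in 4T1 and 1.03, 1.03 and 0.97 in Py230 tumors, a difference of -0.13 with a standard error of 0.05 (adjusted p = 0.0324). Txnrd1 scored 1.23, 1.20 and 1.27 against 1.42, 1.38 and 1.30, a difference of -0.13 with a standard error of 0.03 (adjusted p = 0.00293), the opposite direction to week 6. When only the compared week 3 groups were fitted, 0 genes passed. The Gclm call was lost with cyclic loess normalization (-0.12) and without 4T1 replicate 1 or Py230 replicate 1 or 2, and the differences then reached -0.06. The Srxn1 call was lost without 4T1 replicate 3 or Py230 replicate 1 (0.15), and the Nfe2l2 call without 4T1 replicate 1 (0.10) or Py230 replicate 1 or 2. Of the members without a call at week 3, Gclc differed by -0.13, Nqo1 by -0.18 and Keap1 by 0.04.

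**Figure D3:**
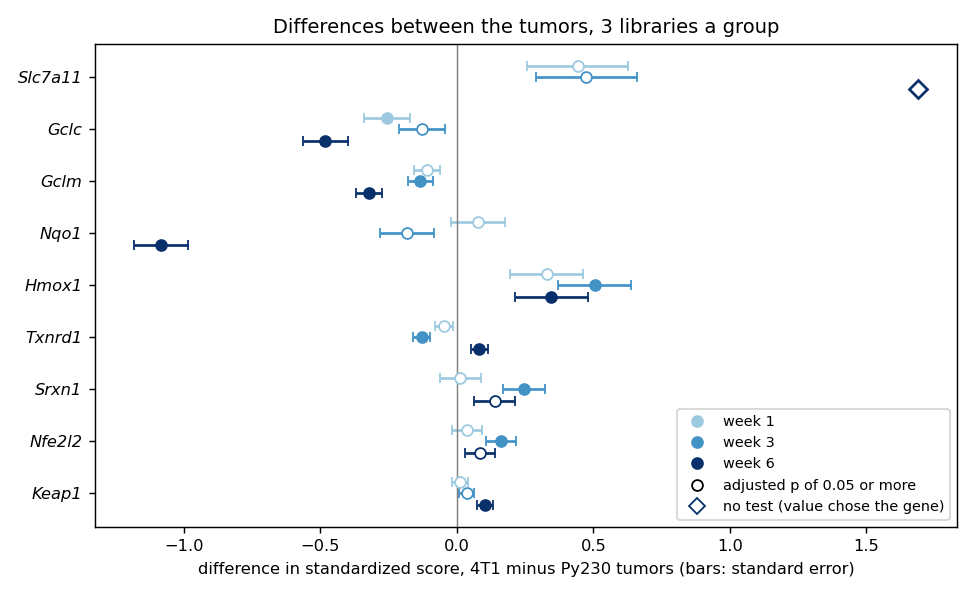
Difference in standardized score, 4T1 minus Py230 tumors (horizontal axis, bars ± standard error), for the 9 genes (vertical axis) at weeks 1, 3 and 6. Filled points passed an adjusted p below 0.05, open points did not, and the open diamond is the untested week 6 value of Slc7a11, 1.69, opposite in sign to the -1.08 of Nqo1.

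The change of the 4T1 minus Py230 difference over time was tested as well. From week 3 to week 6 it changed for 4 of the 8 tested genes, where 26.7% of all genes did in either direction. The difference moved by -0.90 for Nqo1 with a standard error of 0.14 (adjusted p = 3.28e-05), by -0.35 for Gclc with 0.12 (adjusted p = 0.0266), by -0.19 for Gclm with 0.07 (adjusted p = 0.0371) and by 0.21 for Txnrd1 with 0.04 (adjusted p = 9.21e-04). The differences of Nqo1, Gclc and Gclm became more negative, and that of Txnrd1 turned from -0.13 to 0.08. For Slc7a11 the untested change was 1.22. The Gclc and Gclm calls were each lost without 4T1 week 3 replicate 2 or 3 or 4T1 week 6 replicate 1 or 3. The Gclc call was also lost without Py230 week 3 replicate 1 or week 6 replicate 3, and the Gclm call without Py230 week 3 replicate 3 or week 6 replicate 1 or 2, at values of -0.34 to -0.25 for Gclc and -0.19 to -0.14 for Gclm. In a fit of the compared groups alone neither passed (adjusted p = 0.118 for Gclc and 0.207 for Gclm). From week 1 to week 3, 0 of 9 genes changed by limma, against 15.3% of all genes. At an unadjusted p below 0.05 there was 1, against 30.1% of all genes.

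Within the 4T1 tumors, 3 of the 8 tested genes differed between week 6 and week 3, where 53.0% of all genes did. Nqo1 fell by 0.81 (adjusted p = 2.31e-07), Gclc fell by 0.25 (adjusted p = 0.0121) and Txnrd1 rose by 0.23 (adjusted p = 1.54e-06), while Slc7a11 stood 1.28 higher without a test. The Gclc call was lost without 4T1 week 3 replicate 2 (-0.22) or 3 (-0.20) and in a fit of the compared groups alone (adjusted p = 0.0590). Between week 1 and week 3 of the 4T1 tumors 0 of 9 genes passed, against 0.628% of all genes. At an unadjusted p below 0.05 there were 2, against 16.5% of all genes. In the Py230 tumors, Hmox1 fell by 0.41 (adjusted p = 0.0309), Srxn1 fell by 0.26 (adjusted p = 0.0201) and Nfe2l2 fell by 0.18 (adjusted p = 0.0230) from week 1 to week 3, 3 of 9 genes against 20.0% of all genes. Each of these 3 calls was lost without Py230 week 1 replicate 2 or 3 or week 3 replicate 1, that of Nfe2l2 also without week 3 replicate 2, and 0 passed in a fit of those groups alone. From week 3 to week 6 of the Py230 tumors 0 of 8 genes passed, against 6.03% of all genes. At an unadjusted p below 0.05 there was 1, against 20.9% of all genes.

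The Matrigel glands gave the level of these genes without tumor cells and the difference between the strains. Between BALB/c and C57BL/6 glands 0 of 9 genes passed at any week by limma, against 3.06%, 3.77% and 3.84% of all genes at weeks 1, 3 and 6. At an unadjusted p below 0.05 there were 0, 2 and 0 genes, against 12.1%, 13.9% and 13.9% of all genes. After the strain difference of the glands was subtracted from the week 6 tumor difference, 2 of 8 genes passed, against 25.5% of all genes. They were Nqo1, at -1.22 with a standard error of 0.14 (adjusted p = 2.62e-07), and Gclm, at -0.32 with a standard error of 0.07 (adjusted p = 6.48e-04). The same value of Slc7a11, untested, was 1.70. At weeks 1 and 3, 0 of 9 genes passed in this comparison, against 0.305% and 9.15% of all genes. At an unadjusted p below 0.05 there were 1 and 3, against 17.9% and 25.4% of all genes.

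Against the BALB/c glands, 4 of 8 genes were higher (background 38.6%) and 3 lower (background 21.5%) in 4T1 tumors at week 6. Nqo1 scored 0.55, 0.62 and 0.75 in the glands, so the tumors were lower by a difference of -1.14 with a standard error of 0.10 (adjusted p = 5.91e-10). Gclc was lower by a difference of -0.45 (adjusted p = 5.34e-05) and Gclm by a difference of -0.16 (adjusted p = 0.00508). Hmox1 was higher by 0.48 (adjusted p = 0.00311), Txnrd1 by 0.27 (adjusted p = 9.71e-08), Nfe2l2 by 0.18 (adjusted p = 0.00528) and Keap1 by 0.07 (adjusted p = 0.0407). The median difference of all genes was 0.07, 64.2% of all calls were higher (50.6% with cyclic loess normalization), and the Keap1 call was lost with quantile (0.02, adjusted p = 0.514), cyclic loess and robust line scaling, in a fit of the compared groups alone and without 4T1 replicate 1 or 3 or gland replicate 2 or 3. Slc7a11 stood 1.73 higher than in the glands, without a test.

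At week 1 the 4T1 tumors exceeded the BALB/c glands in 2 of 9 genes (background 9.91%), with 0 lower (background 6.72%). Hmox1 scored 1.42, 1.16 and 1.64 in the tumors and 0.95, 0.56 and 1.02 in the glands, higher by 0.56 with a standard error of 0.13 (adjusted p = 0.00879). Nfe2l2 was higher by 0.18 with a standard error of 0.05 (adjusted p = 0.0253). Slc7a11 differed by 0.52 with a standard error of 0.19 (adjusted p = 0.0549), and its libraries did not overlap. The Hmox1 call was lost without 4T1 replicate 3 (0.45) or gland replicate 2 (0.42), and the Nfe2l2 call without 4T1 replicate 1 or 3 or gland replicate 1 or 2. At week 3, 0 of 9 genes passed, against 3.25% of all genes, and the Slc7a11 difference was 0.20. At an unadjusted p below 0.05 there were 4 of 9, against 21.2% of all genes. The 4 were Gclm (-0.16, adjusted p = 0.0520), Nqo1 (-0.31, adjusted p = 0.0769), Hmox1 (0.36, adjusted p = 0.117) and Nfe2l2 (0.12, adjusted p = 0.191). Of these, only Nfe2l2 had libraries that overlapped those of the glands. The 4 were picked by their unadjusted p, and the share of all genes without overlap was not counted.

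Few of these genes passed between the Py230 tumors and the C57BL/6 glands. At weeks 1 and 3, 0 of 9 genes passed, against 0.00924% and 19.7% of all genes. At an unadjusted p below 0.05 there were 1 and 0, against 7.15% and 33.4% of all genes. At week 1 only 2 of all 21650 genes passed, so the count of passing genes there says little about these 9. The gene with the small unadjusted p there was Txnrd1, higher by 0.13 with libraries that did not overlap (limma, unadjusted p = 3.42e-04, adjusted p = 0.247). At week 6, 2 of 8 were higher (background 28.8%) and 0 lower (background 18.7%). Gclm was higher by 0.16 with a standard error of 0.05 (adjusted p = 0.00608) and Txnrd1 by 0.23 with a standard error of 0.03 (adjusted p = 2.67e-06). Gclm was thus above its strain's glands in week 6 Py230 tumors and below them in week 6 4T1 tumors, and Txnrd1 was above them in both. Slc7a11 differed by 0.11 at week 1, -0.27 at week 3 and 0.03 at week 6, with overlapping libraries each time.

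Across the 12 group means Slc7a11 correlated with Nqo1 at -0.88, Gclc at -0.84 and Gclm at -0.77, and with Hmox1 at 0.72, Keap1 at 0.70, Nfe2l2 at 0.69, Txnrd1 at 0.58 and Srxn1 at 0.22 (Pearson's r, a description over groups that share libraries with the comparisons above). Without the week 6 4T1 tumors the values over the 11 remaining groups were -0.19 for Nqo1, -0.76 for Gclc, -0.61 for Gclm, 0.94 for Hmox1, 0.84 for Nfe2l2, 0.74 for Srxn1, 0.15 for Txnrd1 and 0.11 for Keap1. The relation with Nqo1 therefore rested on that 1 group, and those with Hmox1 and Nfe2l2 did not. Within groups, the deviations of the 36 libraries from their group means were correlated with those of Slc7a11. The values were 0.78 for Nfe2l2, 0.61 for Hmox1 and 0.33 for Srxn1, and between -0.23 and 0.18 for the other 5. Among genes with a mean score at or above the median, 86.8% had a lower r over the 12 groups than Hmox1. This share was 84.9% for Keap1, 84.8% for Nfe2l2, 75.5% for Txnrd1, 51.2% for Srxn1, 5.81% for Gclm, 3.36% for Gclc and 2.13% for Nqo1. No such share was computed over the 11 groups or for the deviations.

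**Figure D4:**
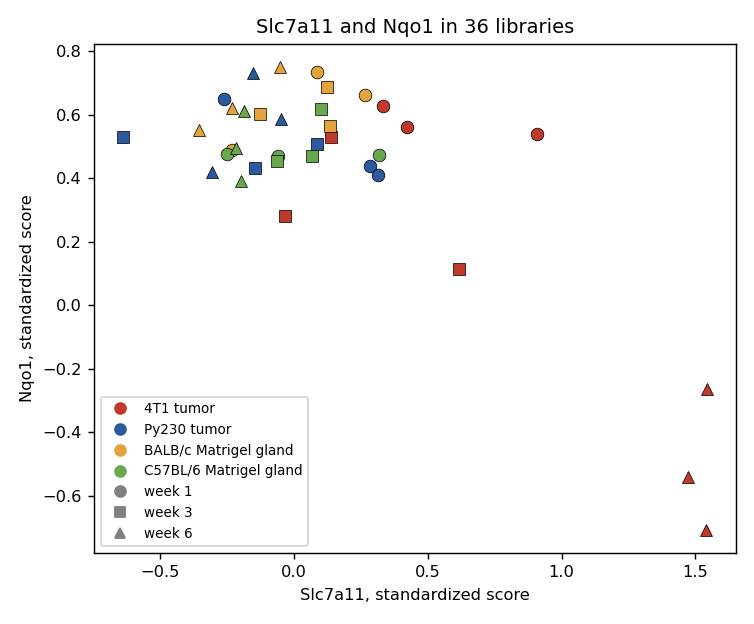
Score of Nqo1 (vertical axis) against that of Slc7a11 (horizontal axis), 1 point per library, with color for the group and shape for the week. The 3 week 6 4T1 libraries stand alone at the lower right, with Slc7a11 at 1.47 to 1.54 and Nqo1 below 0.

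Among 10825 named genes with a mean score at or above the median, those whose 12 group means were most like Slc7a11 were Fam107b (r = 0.979), Ctla2a (0.976), Gm12844 (0.972), Galc (0.965) and Adpgk (0.965). Galc encodes a lysosomal galactosylceramidase and Adpgk an ADP-dependent glucokinase. The least like were Xist (-0.986), the RNA of the inactive X chromosome, Zfp521 (-0.978) and Hspb1 (-0.975), which encodes a small heat shock protein. All searched genes but the lowest and highest 10% lay between -0.68 and 0.76. These values include the week 6 4T1 tumors, the group for which Slc7a11 was chosen. Over the 11 remaining groups they were 0.896 for Fam107b, 0.881 for Ctla2a, 0.867 for Gm12844, 0.918 for Galc and 0.825 for Adpgk, and -0.933 for Xist, -0.917 for Zfp521 and -0.879 for Hspb1. The searched genes were not ranked again over those 11 groups.

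The counts of the related lists at week 6 are to be read beside the 24.1% of all genes that were higher and the 16.7% that were lower in 4T1 tumors. Of 21 genes of cystine and glutathione metabolism 7 were higher and 6 lower, with a median difference of 0.08 against 0.04 over all genes. The counts were 7 and 5 with quantile, 6 and 7 with cyclic loess and 7 and 7 with robust line scaling. Gsr, which regenerates reduced glutathione, was higher by 0.42 with a standard error of 0.04 (adjusted p = 1.85e-08), while Cbs, the first enzyme of cysteine synthesis from homocysteine, was lower by a difference of -1.14 with a standard error of 0.15 (adjusted p = 9.72e-07). Slc3a2, the heavy chain that carries SLC7A11 to the cell surface, differed by 0.19 with a standard error of 0.08 (adjusted p = 0.0503) and scored 1.57 ± 0.10 in the 4T1 and 1.37 ± 0.04 in the Py230 tumors (SD, n = 3). Gpx4, the glutathione peroxidase that reduces lipid peroxides, differed by 0.19 (adjusted p = 0.0745).

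In glutathione conjugation and export 10 of 25 measured genes were lower and 2 higher, beside 16.7% and 24.1% of all genes, with a median of -0.20. The counts were 10 and 2 with each of the 3 other scalings. Ephx1, the microsomal epoxide hydrolase and a known NRF2 target, was lower by a difference of -1.26 with a standard error of 0.06 (adjusted p = 1.29e-14), at 0.22 ± 0.08 in the 4T1 and 1.49 ± 0.02 in the Py230 tumors (SD, n = 3). Abcc4, an exporter of conjugates and cyclic nucleotides, was higher by 0.66 with a standard error of 0.04 (adjusted p = 3.47e-12). Glutathione transferases are families of similar genes, so reads may have been divided between copies.

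Of 15 aldehyde and quinone reductases 3 were higher and 6 lower, with a median of -0.10. Aldh7a1 was lower by a difference of -0.61 (adjusted p = 7.43e-09), and Cbr3, a carbonyl reductase, by a difference of -0.60 (adjusted p = 5.18e-08). Of 16 genes of the thioredoxin and peroxiredoxin list 5 were higher and 3 lower (median -0.03), led by Sesn3, a sestrin (0.68, adjusted p = 6.07e-09), and Prdx5, a peroxiredoxin (0.25, adjusted p = 5.69e-06). The thioredoxin and peroxiredoxin counts were 4 and 4 with quantile and 4 and 3 with cyclic loess normalization. Of 9 genes of NADPH supply 3 were higher and 1 lower (median -0.03), or 2 and 1 with each of the 3 other scalings. Idh1 was higher by 0.25 (adjusted p = 0.0109) and Taldo1, of the pentose phosphate pathway, lower by a difference of -0.27 (adjusted p = 0.00894).

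Haem and iron handling had 3 of 16 genes higher and 2 lower (median -0.0042), with Fth1, the ferritin heavy chain, higher by 0.23 (adjusted p = 1.28e-05) and Slc11a2, an iron importer, lower by a difference of -0.35 (adjusted p = 2.24e-07). With quantile and cyclic loess normalization 3 and 4 genes of haem and iron handling were lower. The other antioxidant enzymes had 3 of 10 higher and 0 lower (median 0.10), with 1 higher under cyclic loess. Among the 3 were Park7 (0.23, adjusted p = 0.00346) and Pon3 (0.21, adjusted p = 0.0187). Of 16 NRF2 regulators 5 were higher and 4 lower (median 0.03). The counts were 4 and 3 with quantile and 4 and 5 with cyclic loess normalization. Sqstm1, the autophagy receptor that sequesters KEAP1 and is itself an NRF2 target, was higher by 0.36 (adjusted p = 5.74e-07), as was Btrc, a ubiquitin ligase subunit that acts on NRF2 independently of KEAP1 (0.20, adjusted p = 1.34e-05). Bach1, which competes with NRF2 for its elements, differed by 0.16 (adjusted p = 0.0611).

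The ATF4 stress response, the other known route to Slc7a11, had 7 of 28 genes higher and 5 lower, close to the 24.1% and 16.7% of all genes, and a median of 0.04. Its 2 genes with the smallest p were both lower: Stc2, a secreted glycoprotein, by a difference of -1.43 (adjusted p = 9.94e-09) and Gpt2, a mitochondrial alanine aminotransferase, by a difference of -0.74 (adjusted p = 5.97e-09). With quantile or cyclic loess normalization the ATF4 list had 6 genes higher and 6 lower. Atf4 itself differed by 0.08 with a standard error of 0.03 (adjusted p = 0.0575). Of the 11 measured genes of the SLC7 transporter family and its heavy chains other than Slc7a11, 3 were higher and 2 lower, with Slc7a6 higher by 0.69 (adjusted p = 6.30e-10) and the arginine transporter Slc7a2 lower by a difference of -0.83 (adjusted p = 5.11e-05). Of 13 ferroptosis genes 3 were higher and 2 lower (median 0.07). Acsl4 was higher by 0.61 (adjusted p = 1.29e-07), and Lpcat3 was lower by a difference of -0.26 (adjusted p = 3.22e-06).

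**Figure D5:**
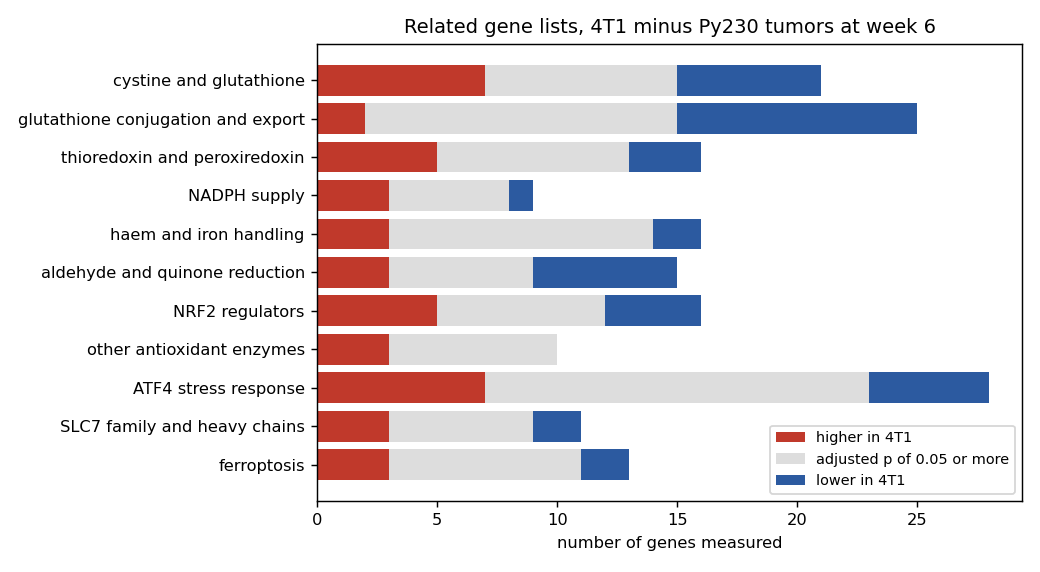
Number of measured genes (horizontal axis) in 11 related lists (vertical axis) that were higher, lower or not past an adjusted p of 0.05 in 4T1 minus Py230 tumors at week 6. Glutathione conjugation and export has 10 genes lower and 2 higher, and each list except the other antioxidant enzymes has genes in both directions.

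The levels of cell type markers also differed between groups, and whether they moved with the 9 genes was not tested. The mean score of 10 adipocyte markers was -0.20 in week 6 4T1 tumors (libraries -0.31 to -0.01), 0.34 in week 6 Py230 tumors (-0.12 to 1.03) and 1.34 to 2.08 in all other groups, with 0 of 10 called between the week 6 tumors and 10 of 10 lower than the glands in both models. The 8 lactating epithelium markers averaged -0.84 (-0.85 to -0.83) in week 6 4T1 and 0.10 (-0.04 to 0.23) in week 6 Py230 tumors, with 6 of 8 lower. The 10 epithelial markers averaged 1.23 (0.93 to 1.39) and 1.46 (1.42 to 1.52), with 4 lower. The 10 neutrophil markers averaged -0.25 (-0.34 to -0.15) and -0.95 (-1.04 to -0.87), with 9 of 10 higher, and in 4T1 tumors 4 of the 10 still had mean scores below -1.

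The 8 skeletal muscle markers averaged -0.31 (-0.68 to 0.13) in week 6 4T1 and 0.35 (-0.76 to 1.01) in week 6 Py230 tumors, with overlapping libraries and 0 called. The 9 basal and keratinocyte markers averaged -0.50 (-1.04 to 0.16) and -0.26 (-0.35 to -0.16), with 3 lower and 0 higher, while the median difference over the list was 0.32, opposite in sign to the means. Of 10 T cell markers 0 were higher and 1 lower, of 7 B cell markers 0 and 1, of 9 fibroblast markers 1 and 1, of 8 endothelial markers 1 and 0, and of 4 erythroid markers 0 passed in either direction. The part of these cell types in the differences of Slc7a11, Nqo1, Gclc, Gclm and Hmox1 was not tested.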

How the data were processed

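RNA from whole tumors and Matrigel glands was sequenced as stranded paired-end libraries on a HiSeq4000. Per the labels and the study's methods, the authors aligned reads to mm10 with STAR, counted them per gene with summariseOverlaps and normalized them with DESeq2; versions are not given in the sources used here. The deposited score table held values that the authors had standardized to a mean of 0 and an SD of 1 in each library, a step the sources do not describe; it is not a count table, so depth is unknown and no counting interval is given. The deposited tables of the authors' comparisons also hold log2 fold changes, standard errors and p-values, which were not used; their mean normalized count per gene and their symbols for 16266 genes were used, and 5384 genes were named from the reference table. Where the design foresaw counts, limma on the scores replaced a count test.

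Scores were fitted with limma 3.58.1 in R 4.3.3, with 1 mean per group over all 36 libraries, empirical Bayes with trend and robust options, two-sided tests and Benjamini-Hochberg adjustment over all 21650 genes. A gene was called at an adjusted p below 0.05. Exact permutation of 3 against 3 libraries cannot give a p below 0.1 and was not used. Slc7a11 was left untested in every comparison that held week 6 tumors. The fit was tested on simulated scores with known differences. No pair of libraries was identical. Replicate numbers were not taken as pairs. The genes, lists and motifs were chosen with earlier results of these data known. Named besides the 9 genes were the 2 genes with the smallest p at week 6 in each related list, 6 set genes (Slc3a2, Gpx4, Bach1, Sqstm1, Atf4 and Gsr), and the 5 genes most and 3 least like Slc7a11. Alternatives were 3 scalings, a mean normalized count of at least 10, no trend, array weights, a replicate block, the compared groups alone and leaving out each library.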

Additional observations from a re-analysis of the deposited data

Results flagged for a closer look

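These results were flagged because a difference between the tumor models was itself tested for a change, either between weeks or against the strain difference of the glands, and passed an adjusted p below 0.05 with limma. From week 3 to week 6 the 4T1 minus Py230 difference changed by -0.35 for Gclc, by -0.19 for Gclm, by -0.90 for Nqo1 and by 0.21 for Txnrd1. After subtraction of the strain difference of the Matrigel glands at week 6, the difference was -0.32 for Gclm and -1.22 for Nqo1. With 3 libraries per group, single outlying libraries could not be tested.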

How the results depend on the processing

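At week 6 the lower calls of Gclc, Gclm and Nqo1 between the tumors held under every alternative run. The week 6 Slc7a11 difference lay between 1.62 and 1.75 when single libraries were left out. That range only describes the value for which Slc7a11 was chosen and is no support for it. The number of genes called otherwise moved as follows. Array weights, whose estimation stopped before it converged, raised it to 4 for 4T1 minus Py230 at week 1, to 6 for 4T1 minus glands at week 1, to 2, 5 and 5 for Py230 minus glands at weeks 1, 3 and 6, to 2, 4 and 1 for the strains, to 3 for the change from week 1 to 3, to 3 and 3 after strain subtraction at weeks 1 and 3, to 4 and 6 for 4T1 over time and to 4 for Py230 from week 3 to 6. A fit of only the compared groups gave 0 for 4T1 minus Py230 at week 3, 0 for 4T1 minus glands at week 1, 2 for the strains at week 3, 2 for the change from week 3 to 6 and 0 for Py230 from week 1 to 3. Over all genes it called 1487 at week 1 and 434 at week 3 between the tumors, against 4196 and 6569 in the fit of all groups and 9454 and 12461 with array weights. Cyclic loess gave 3 at week 6 between the tumors and 5 for 4T1 from week 3 to 6. For 4T1 minus glands at week 3, quantile and cyclic loess normalization and the count minimum each gave 1. The causes were not tested.

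With single libraries left out, the counts ranged from 0 to 3 at week 1, from 2 to 6 at week 3 and from 4 to 5 at week 6 (6 with all libraries) between the tumors, from 0 to 3 and from 0 to 2 for 4T1 minus glands at weeks 1 and 3, from 0 to 1 for Py230 minus glands at week 3, from 0 to 1 and from 2 to 4 for the changes from week 1 to 3 and from week 3 to 6, from 0 to 2 after strain subtraction at week 3, from 2 to 5 for 4T1 from week 3 to 6 and from 0 to 3 for Py230 from week 1 to 3.

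Values that changed sign had not passed a test. Between the tumors at week 1, Srxn1 was -0.0786 with array weights and -0.112 to 0.0863 with libraries left out, and Nfe2l2 -0.0143 to 0.0726. Slc7a11 was -0.0397 for 4T1 minus glands at week 3 and -0.18 for the change from week 1 to 3 with array weights, and -0.0155 for Py230 minus glands at week 6 with cyclic loess. With libraries left out it was -0.0169 to 0.296 and -0.0298 to 0.0998 for Py230 minus glands at weeks 1 and 6, -0.17 to 0.22 for the change from week 1 to 3 and -0.14 to 0.22 for Py230 from week 3 to 6.

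Whether the replicate numbers paired the libraries was not settled. Of 198 same-numbered pairs, 80 deviated together (r above 0.1), and 17 of 36 libraries deviated most like libraries of their own number. The share among different-numbered pairs was not counted. Each library had 3 numbers to be closest to, and how many of the 36 would match their own without pairing was not computed. With the replicate block, 4T1 minus glands gave 1 gene at week 3 and 3 at week 1, where Slc7a11 passed (0.52, adjusted p = 0.0493). Strain subtraction at week 6 gave 3, and no other count of the followed genes moved. Over all genes the block raised the number called in every comparison, for example from 4196 to 4502 between the tumors at week 1. The tests rest on 3 libraries per group, and without read counts no limit of detection can be given.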
